A study of Mus musculus with 12 samples.

Results

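Cxcl1, Cxcl2, Cxcl3 and Cxcl5 encode secreted chemokines that attract neutrophils. These 4 genes, chosen by name, were followed among the 21001 genes of an RNA sequencing study of mouse bone marrow stromal cells. Each was found by its Entrez number (14825, 20310, 330122 and 20311 in the order above), each had 1 transcript in the files, and all 4 passed the filter of at least 1 FPKM in at least 3 libraries. FPKM is the fragment count corrected for transcript length and library depth, so levels of different genes can be compared on it.

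The study had 12 libraries in 4 groups of 3, all from C57BL/6 stromal cells marked with green fluorescent protein (GFP) with a genotype the labels spell as wide type. TUMOR cells were GFP cells taken from the injection site of mice given a mixture of GFP stromal cells and LLC cells, the Lewis lung carcinoma line of the mouse, which carried a red fluorescent protein. BM cells were GFP cells taken from the bone marrow of mice given that same co-injection. HOMING cells were GFP cells recovered from marrow after GFP stromal cells without tumour cells had been put under the skin, and NC cells were GFP stromal cells in primary culture. By its title the series asks how cancer-educated stromal cells prepare a niche for metastasis through suppressive granulocytic cells. The sort gate, its purity, the age of the mice and the time after injection are not given in the labels. NC cells were kept in culture, whereas the cells of the other 3 groups were recovered from injected mice, so effects of culture and of the time in an animal cannot be told apart.

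CXC chemokines of this kind carry a glutamate-leucine-arginine motif ahead of their first cysteines and bind CXCR2, the main chemokine receptor of mouse neutrophils. In marrow, CXCR2 ligands mobilise neutrophils, whereas CXCL12 made by stromal cells holds them there through CXCR4. Stromal and myeloid cells make these chemokines when interleukin-1, tumour necrosis factor or bacterial products switch on the transcription factor NF-kB. Their mRNAs are short-lived and are targets of the decay factor tristetraprolin, the product of Zfp36.

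All 4 genes lie in a cluster of chemokine genes on chromosome 5. In the order of the RefSeq annotation of GRCm38.p6 the cluster reads Cxcl5, Ppbp, Pf4, Cxcl3, Cxcl15, Cxcl1 and Cxcl2. The promoters of Cxcl1, Cxcl2 and Cxcl3, the 3 members matched in the RefSeq promoter table, are shown because all 3 hold the same short runs of bases. Each line gives the 120 bases before the RefSeq transcription start on the plus strand of GRCm38.p6, at chr5:90891125-90891244 for Cxcl1, chr5:90903779-90903898 for Cxcl2 and chr5:90785981-90786100 for Cxcl3. Capitals mark every run of at least 8 bases found in all 3, which are GGGAATTTCCC, a kappaB-type motif, and ATAAAAGG, a TATA-type motif.
Cxcl1: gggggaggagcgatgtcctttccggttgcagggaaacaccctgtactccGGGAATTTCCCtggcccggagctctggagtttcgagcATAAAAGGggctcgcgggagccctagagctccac
Cxcl2: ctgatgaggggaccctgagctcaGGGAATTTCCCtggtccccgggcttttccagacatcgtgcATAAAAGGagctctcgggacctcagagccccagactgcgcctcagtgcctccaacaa
Cxcl3: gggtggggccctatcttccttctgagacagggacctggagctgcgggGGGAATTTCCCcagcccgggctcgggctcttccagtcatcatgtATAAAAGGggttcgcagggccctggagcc

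GGGAATTTCCC began 71 bases before the start in Cxcl1, 97 bases before it in Cxcl2 and 73 bases before it in Cxcl3. ATAAAAGG lay closer to the start in each, beginning 34 bases before it in Cxcl1, 57 in Cxcl2 and 29 in Cxcl3. Both runs came from these sequences themselves and were then searched on both strands of the 250 bases before the start of every RefSeq promoter. GGGAATTTCCC was in 14 of 32851 promoters (0.0426%) and ATAAAAGG was in 507 of them (1.54%), and the runs do not overlap each other. Both counts include the promoters of Cxcl1, Cxcl2 and Cxcl3, from which the runs were taken. GGGAATTTCCC was not in that window of Ppbp, Cxcl15, Pf4, Cxcl9, Cxcl10, Cxcl12, Cxcl13 or Cxcl14. Of these, Ppbp alone held ATAAAAGG, on the minus strand. The 120-base stretches of Cxcl1 and Cxcl3 were 63.6% identical when aligned, those of Cxcl1 and Cxcl2 54.3%, and those of Cxcl2 and Cxcl3 52.7%. A match gives only the letters in the window, not the binding of a factor.

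Libraries held 43232145 to 46166519 expected counts, the estimated reads assigned to transcripts. The labels do not say whether the 3 libraries of a group came from separate animals or cultures, so p-values measure only the spread between these libraries, which may be technical. The 12 stromal markers that were examined summed to 533 to 659 FPKM in TUMOR, 551 to 580 FPKM in BM, 463 to 506 FPKM in HOMING and 702 to 780 FPKM in NC, though Thy1, Nt5e and Lepr stayed under the filter. The 4 pan-leukocyte markers, Ptprc, Coro1a, Laptm5 and Spi1, summed to 0.20 to 0.59 FPKM in TUMOR, 7.08 to 7.96 FPKM in BM, 99.8 to 169 FPKM in HOMING and 0.29 to 0.35 FPKM in NC. The 6 erythroid markers summed to 1916 to 3133 FPKM in HOMING and to at most 2.98 FPKM in any library of the other groups. HOMING therefore held RNA of blood cell genes at levels the other groups did not have, and HOMING replicate 3 held the most. In bulk RNA, more or fewer cells of a type and more or less RNA per cell cannot be told apart.

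Cxcl1, known as KC in the mouse, was the most abundant of the 4 in BM and NC. It was measured at 117, 123 and 112 FPKM in the TUMOR libraries, 1142, 1160.1 and 1272 FPKM in BM, 479.6, 483 and 513 FPKM in HOMING and 191, 181 and 292 FPKM in NC. The 4 groups did not overlap, with every BM library highest and every TUMOR library lowest. The share of all genes whose groups part in this way is not given, here or for the members below. Among the 21001 genes its mean ranked 647 in TUMOR, 46 in BM, 139 in HOMING and 348 in NC. NC replicate 3 was well above the other NC libraries.

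Cxcl5, known as LIX in the mouse, had the same order among the marrow and culture groups but a narrower range. Its levels were 119, 168 and 162 FPKM in TUMOR, 873, 795 and 908 FPKM in BM, 629, 620.0 and 657 FPKM in HOMING and 190.5, 158 and 204 FPKM in NC. Every BM library was above every HOMING library, and both groups were above TUMOR and NC. TUMOR and NC overlapped. The mean of Cxcl5 ranked 480 in TUMOR, 85 in BM, 125 in HOMING and 420 in NC.

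Cxcl2, known as MIP-2, was far lower than Cxcl1 and Cxcl5 in culture and highest in HOMING. The TUMOR libraries had 8.71, 5.53 and 5.94 FPKM, the BM libraries 66.6, 69.7 and 72.3 FPKM, the HOMING libraries 135, 131 and 194 FPKM and the NC libraries 1.53, 1.65 and 2.43 FPKM. No groups overlapped, and the order was HOMING, BM, TUMOR and NC from high to low. HOMING replicate 3 was the highest library of all.

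Cxcl3, a close relative of Cxcl2, was the least abundant member in every library. It stood at 2.68, 1.29 and 1.27 FPKM in TUMOR, 21.6, 24.4 and 23.5 FPKM in BM, 90.3, 86.3 and 134 FPKM in HOMING and 0.25, 0.19 and 0.25 FPKM in NC. Its groups did not overlap and ran in the same order as those of Cxcl2. The NC values rest on 11, 8 and 11 reads, so among the 4 genes the fold changes against NC are least precise for Cxcl3. The mean of Cxcl3 ranked 10684 in TUMOR, 3742 in BM, 771 in HOMING and 12998 in NC.

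**Figure D1:**
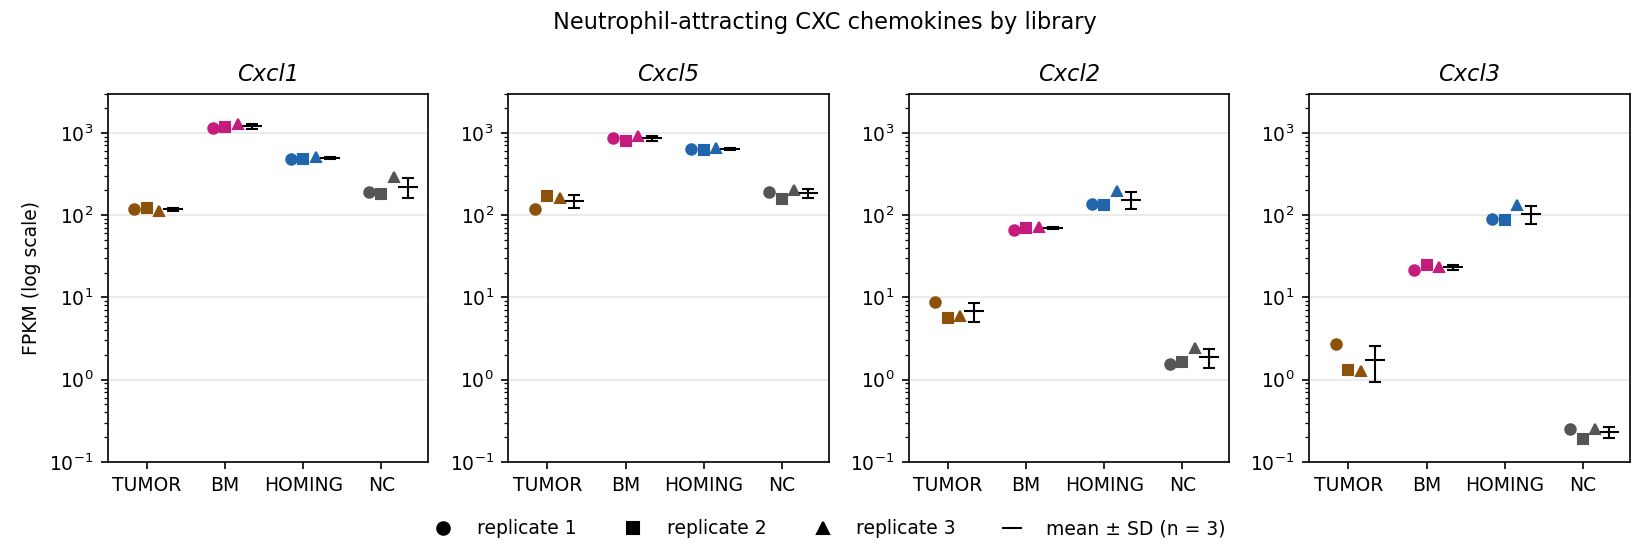
FPKM on a log scale for each library of TUMOR, BM, HOMING and NC, with a panel per gene, replicates as separate symbols and the mean ± SD of 3 libraries beside them. Cxcl1 and Cxcl5 peak in BM, at means of 1191 and 859 FPKM, while Cxcl2 and Cxcl3 peak in HOMING, at means of 154 and 104 FPKM.

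Reads shared between related genes could touch these values, since no source used here names the counting program. The longest protein-coding GENCODE transcript of each gene was compared, which for Cxcl2 had 1859 bases against 1083 in the deposited data. The longest identical stretch was 110 bases for Cxcl2 and Cxcl3, and 23 bases for Cxcl1 with either Cxcl2 or Cxcl3. For Cxcl5 with any other member it was 11 or 12 bases. All 48 expected counts of the members were whole numbers, within 1e-06, so no fractional split of reads is visible in them. Fractional counts do occur for other genes, such as 10.56 for Il1a in TUMOR replicate 1. Whether reads were shared between Cxcl2 and Cxcl3 was not tested. Because of their 110-base stretch, their levels are read with more caution than those of Cxcl1 and Cxcl5.

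The comparison of BM with HOMING set marrow cells from mice with tumour cells against marrow cells from mice without them. Cxcl1 rose in BM, to 1191 ± 70.5 FPKM against 492 ± 18.3 FPKM in HOMING (SD, n = 3 each), while Cxcl2 and Cxcl3 fell. The log2 fold change of Cxcl1 was 1.31 ± 0.15 (standard error; 95% interval 0.99 to 1.62; edgeR quasi-likelihood test, adjusted p = 7.75e-06), or 2.47-fold. A gene was called where this adjusted p was under 0.05 and the change at least 2-fold. Cxcl2 averaged 69.5 ± 2.81 FPKM in BM and 154 ± 35.5 FPKM in HOMING, a log2 fold change of -1.11 ± 0.17 (interval -1.47 to -0.75, adjusted p = 9.49e-05). That call rested on HOMING replicate 3: without it the log2 fold change was -0.91 (adjusted p = 0.000279) and under the 2-fold minimum. Cxcl3 averaged 23.2 ± 1.45 FPKM in BM and 104 ± 26.4 FPKM in HOMING, a log2 fold change of -2.13 ± 0.18 (interval -2.53 to -1.73, adjusted p = 7.96e-07), and -1.90 without HOMING replicate 3.

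Cxcl5 averaged 859 ± 57.8 FPKM in BM and 635 ± 19.3 FPKM in HOMING. Its log2 fold change of 0.46 ± 0.12 (interval 0.21 to 0.72, adjusted p = 0.00418) was beyond the spread between libraries but under the 2-fold minimum. Of the 4 genes, 1 was called higher and 2 lower in BM, where 10.4% of the 12314 genes tested were called, 3.71% higher and 6.68% lower. In sum the 4 genes reached 2143 ± 118 FPKM in BM and 1384 ± 99.1 FPKM in HOMING, so the summed level was higher in BM although Cxcl2 and Cxcl3 were not.

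Blood cell markers moved with this comparison. Of 16 neutrophil markers, 15 were tested and all 15 were lower in BM, with summed levels of 416 to 440 FPKM in BM and 2734 to 4078 FPKM in HOMING. Lcn2, which NC cells also expressed, made up 359 to 383 FPKM of this in BM and 933 to 1421 FPKM in HOMING, and the other 15 genes of the list summed to 56.3 to 64.5 FPKM in BM and 1800.4 to 2657 FPKM in HOMING. All 4 pan-leukocyte markers, all 6 erythroid markers and 7 of 8 tested macrophage and monocyte markers were lower in BM as well, the last with sums of 61.0 to 62.1 FPKM in BM and 245 to 385 FPKM in HOMING. Some of these markers, such as Mpo, Ctsg, Retnlg and Ptprc, passed the filter through the HOMING libraries alone, so they were tested only because HOMING was high. The part of blood cells in the lower Cxcl2 and Cxcl3 of BM was not tested. Cxcl1 moved the other way, and 3 of 9 tested stromal markers (Pdgfrb, Eng and Col3a1) were called higher in BM, with a list median of 0.69. The rise was not uniform over the list. By the edgeR test at an unadjusted p under 0.05, 6 of the 9 were higher and 2 were lower, and 0 were called lower. The call of Eng (1.04 ± 0.21) was lost without BM replicate 1, HOMING replicate 1 or HOMING replicate 2. The part of stromal cells in the rise of Cxcl1 was not tested.

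The spread within HOMING gives a further measurement. The level in HOMING replicate 3 over the mean of replicates 1 and 2 was 1.07 for Cxcl1 and 1.05 for Cxcl5, but 1.46 for Cxcl2 and 1.52 for Cxcl3. Over the markers with at least 5 FPKM in HOMING, this ratio was 1.33 to 1.82 for 11 neutrophil markers, 1.44 to 1.75 for 6 macrophage and monocyte markers, 1.60 to 1.79 for 4 pan-leukocyte markers and 1.56 to 1.68 for 5 erythroid markers. It was 0.90 to 1.11 for 8 stromal markers and 1.38 to 1.59 for the cytokine genes Il1a, Il1b, Tnf and Il6. Cxcl2 and Cxcl3 thus lay within the ranges of the neutrophil markers, the macrophage and monocyte markers and these cytokines, and below those of the pan-leukocyte and erythroid markers. Cxcl1 and Cxcl5 lay within the range of the 8 stromal markers above this level. Of the stromal markers below it, Eng, at 2.05, 2.06 and 2.91 FPKM in HOMING replicates 1 to 3, was highest in replicate 3. So were Thy1 and Nt5e, at under 1 FPKM, while Lepr was lowest there. The range of the stromal markers thus depends on the 5 FPKM cut. The whole comparison rests on a single library and is a description.

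**Figure D2:**
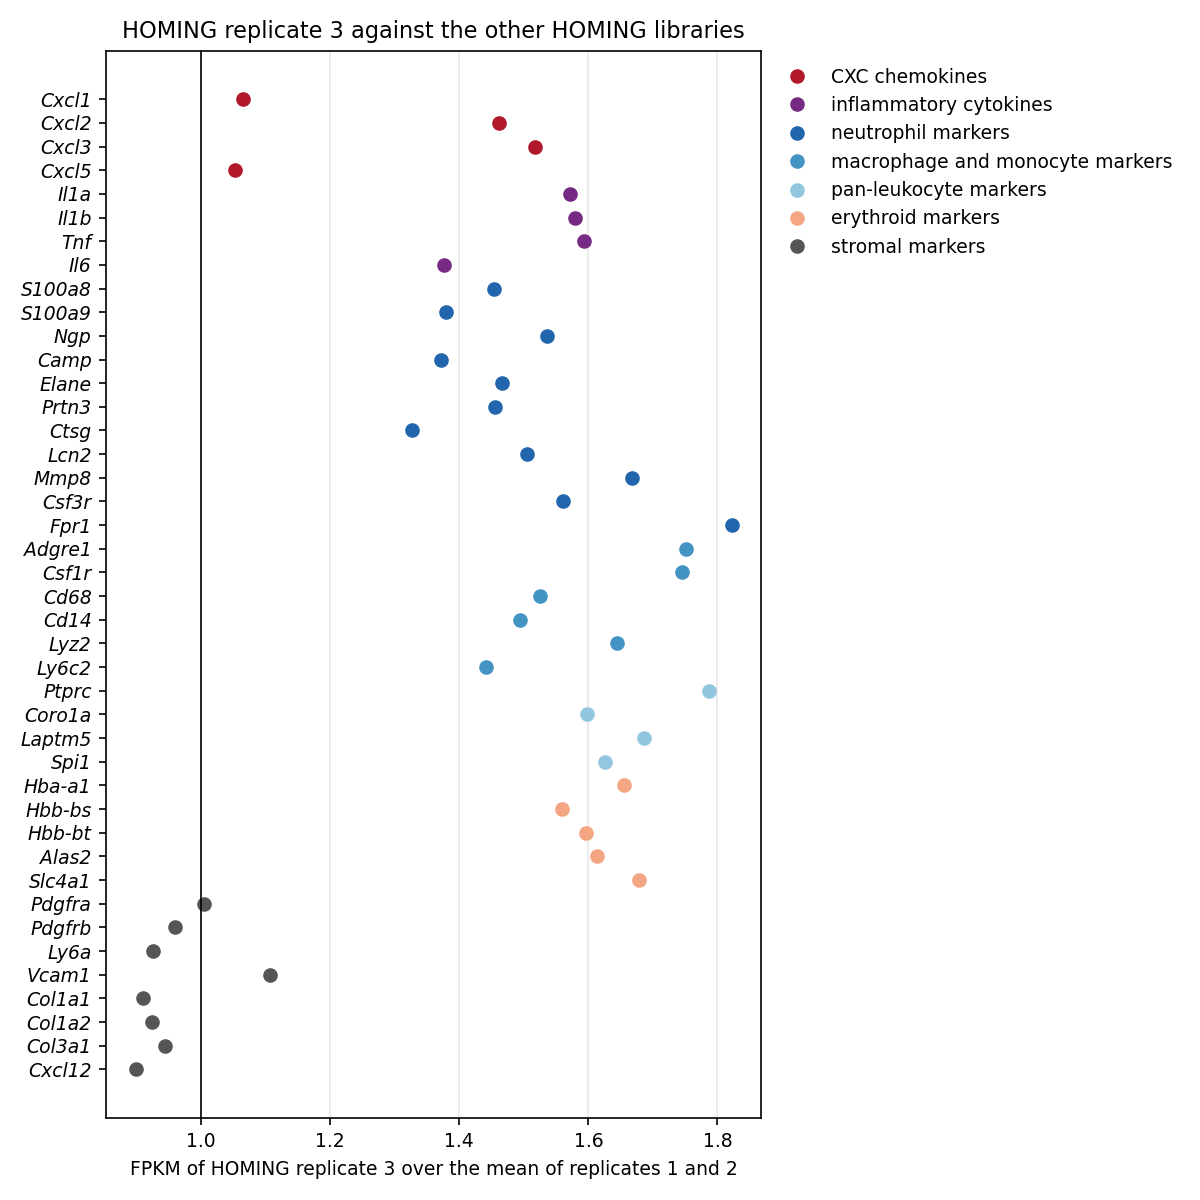
FPKM in HOMING replicate 3 divided by the mean of HOMING replicates 1 and 2, a point per gene, for the 4 chemokines, 4 inflammatory cytokines and marker genes with at least 5 FPKM in HOMING. Cxcl1 and Cxcl5 lie near 1 beside the 8 stromal markers that reach 5 FPKM. Cxcl2 and Cxcl3 lie at 1.46 and 1.52, within the range of the neutrophil markers and below that of the erythroid markers.

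HOMING against NC compared cells from marrow without tumour with cultured cells. All 4 genes rose in HOMING, where 14.3% of all genes tested were called, 9.64% higher and 4.69% lower. Cxcl3 averaged 104 ± 26.4 FPKM in HOMING and 0.230 ± 0.0346 FPKM in NC, a log2 fold change of 8.68 ± 0.32 (interval 7.99 to 9.37, adjusted p = 2.27e-10). Cxcl2 averaged 154 ± 35.5 FPKM in HOMING and 1.87 ± 0.489 FPKM in NC, a log2 fold change of 6.24 ± 0.23 (interval 5.74 to 6.74, adjusted p = 2.44e-10), or 75.7-fold. Cxcl5 rose 3.20-fold, to 635 ± 19.3 FPKM in HOMING against 184 ± 23.5 FPKM in NC (log2 fold change 1.68 ± 0.12, adjusted p = 6.60e-08).

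Cxcl1 rose least, to 492 ± 18.3 FPKM in HOMING against 221 ± 61.5 FPKM in NC, a log2 fold change of 1.04 ± 0.14 (interval 0.73 to 1.35, adjusted p = 3.17e-05). It passed the 2-fold minimum narrowly: without NC replicate 1 the log2 fold change was 0.93, without NC replicate 2 it was 0.91, and without NC replicate 3 it was 1.31. Without HOMING replicate 3 all 4 calls held, at 1.01 for Cxcl1, 6.04 for Cxcl2, 8.45 for Cxcl3 and 1.65 for Cxcl5. The blood cell markers named above moved in the same direction. All 15 tested neutrophil markers, all 8 tested macrophage and monocyte markers, all 4 pan-leukocyte markers and all 6 erythroid markers were higher in HOMING, and their part in the result was not tested. Mpo, Elane, Ctsg and Retnlg, neutrophil granule and maturation genes, were at 0 in all NC libraries, and Lcn2 alone made up 346 to 442 FPKM of the 348 to 445 FPKM that the neutrophil list reached in NC.

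BM against NC compared cells from the marrow of mice with tumour cells with cultured cells. All 4 genes rose in BM, where 11.5% of all genes tested were called, 7.93% higher and 3.57% lower. The log2 fold changes were 2.35 ± 0.15 for Cxcl1 (interval 2.02 to 2.67, adjusted p = 7.60e-08) and 2.14 ± 0.12 for Cxcl5 (interval 1.88 to 2.40, adjusted p = 2.82e-08), that is 5.08-fold and 4.41-fold. Cxcl2 rose further, to 69.5 ± 2.81 FPKM in BM against 1.87 ± 0.489 FPKM in NC, with a log2 fold change of 5.13 ± 0.23 (interval 4.64 to 5.62, adjusted p = 6.41e-09). Cxcl3 rose most, to 23.2 ± 1.45 FPKM in BM against 0.230 ± 0.0346 FPKM in NC, with a log2 fold change of 6.55 ± 0.34 (interval 5.82 to 7.28, adjusted p = 1.51e-08). Blood cell markers were also higher in BM: 12 of 15 tested neutrophil markers, 6 of 8 macrophage and monocyte markers, 4 of 4 pan-leukocyte markers and 2 of 6 erythroid markers were called. With limma on log2(FPKM + 1) these counts were 6, 4, 3 and 0 in the same order. The call of the erythroid gene Hba-a1 was lost without BM replicate 2, BM replicate 3 or any single NC replicate. The part of blood cells in the rise of the chemokines was not tested. Both comparisons above and the next share the NC libraries.

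TUMOR against NC compared cells from the tumour site with cultured cells, and here the 4 genes parted. Cxcl2 rose to 6.73 ± 1.73 FPKM in TUMOR against 1.87 ± 0.489 FPKM in NC (log2 fold change 1.72 ± 0.25, interval 1.17 to 2.27, adjusted p = 4.58e-05). Cxcl3 rose to 1.75 ± 0.808 FPKM in TUMOR against 0.230 ± 0.0346 FPKM in NC (log2 fold change 2.78 ± 0.48, interval 1.73 to 3.83, adjusted p = 0.000185). Cxcl1 fell to 117 ± 5.78 FPKM in TUMOR against 221 ± 61.5 FPKM in NC (log2 fold change -1.04 ± 0.15, interval -1.36 to -0.72, adjusted p = 3.00e-05). Cxcl5 averaged 149.7 ± 26.8 FPKM in TUMOR and 184 ± 23.5 FPKM in NC, and its log2 fold change of -0.42 ± 0.12 (interval -0.68 to -0.17, adjusted p = 0.00539) was under the 2-fold minimum.

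The Cxcl1 call in TUMOR was the least secure of the 22 calls made among 24 tests of a member. Without NC replicate 3 its log2 fold change was -0.77, and with scaling by library size it was -0.91, both under the 2-fold minimum. Of all genes tested 16.4% were called in TUMOR, 9.75% higher and 6.65% lower, so that 59.4% of the calls were rises, or 69.7% with scaling by library size. Of the 4 pan-leukocyte markers the edgeR test called 0 in TUMOR against NC, with 0 at an unadjusted p under 0.05, while DESeq2 called 1 higher and 1 lower and limma called 0. In addition, Mpo, Ctsg, Retnlg, Adgre1, C1qa, C1qb and C1qc were at 0 in all TUMOR libraries. The neutrophil list had 3 genes called higher and 2 lower, with a median of 0.33. Lcn2 accounted for most of its sum, at 42.3 to 47.0 FPKM in TUMOR and 346 to 442 FPKM in NC, and the other 15 genes summed to 2.08 to 4.36 FPKM in TUMOR and 1.39 to 2.70 FPKM in NC. Of the macrophage and monocyte markers 2 of 8 tested were higher, as were 2 of 6 erythroid markers and 1 of 5 megakaryocyte and platelet markers. With limma on log2(FPKM + 1) 1 macrophage and monocyte marker was called higher, and 0 genes of the neutrophil, erythroid and platelet lists were. Both erythroid calls, of Hba-a1 and Slc4a1, were lost without NC replicate 1, NC replicate 3 or TUMOR replicate 1. The epithelial markers Krt8 and Krt19 were called higher, and the epithelial list summed to 69.5 to 115 FPKM in TUMOR and 1.92 to 4.23 FPKM in NC. Krt8 and Krt19 made up nearly all of that sum in TUMOR, where Krt18 reached at most 0.12 FPKM, Cdh1 at most 0.04 FPKM and Epcam at most 0.02 FPKM, and those 3 genes were not tested. The part of these genes' source cells in the chemokine values was not tested.

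TUMOR against BM compared GFP cells from the injection site and from the marrow of co-injected mice. All 4 genes fell in TUMOR, where 14.2% of all genes tested were called, 6.95% higher and 7.28% lower. Cxcl1 fell to 117 ± 5.78 FPKM in TUMOR against 1191 ± 70.5 FPKM in BM (log2 fold change -3.39 ± 0.16, interval -3.73 to -3.04, adjusted p = 2.55e-09). The other log2 fold changes were -3.41 ± 0.19 for Cxcl2 (interval -3.84 to -2.99, adjusted p = 1.60e-08), -3.77 ± 0.24 for Cxcl3 (interval -4.30 to -3.24, adjusted p = 4.44e-08) and -2.56 ± 0.12 for Cxcl5 (interval -2.83 to -2.30, adjusted p = 3.32e-09). Neutrophil markers were lower in TUMOR for 12 of 15 tested genes, pan-leukocyte markers for 4 of 4, macrophage and monocyte markers for 6 of 8, erythroid markers for 2 of 6 and platelet markers for 1 of 5, while Krt8 and Krt19 were higher. With limma on log2(FPKM + 1) the counts of lower genes were 7, 3, 3, 0 and 1 in the same order. The part of the cells that make these markers in the fall was not tested. The sum of the 4 chemokines was 276 ± 25.6 FPKM in TUMOR and 2143 ± 118 FPKM in BM.

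TUMOR against HOMING gave falls for all 4 genes as well, where 10.8% of all genes tested were called, 4.42% higher and 6.37% lower. The log2 fold changes were -2.08 ± 0.15 for Cxcl1, -4.52 ± 0.20 for Cxcl2, -5.90 ± 0.24 for Cxcl3 and -2.10 ± 0.12 for Cxcl5 (adjusted p = 1.61e-07, 2.39e-09, 1.20e-09 and 2.12e-08 in that order). Without HOMING replicate 3 they were -2.05, -4.32, -5.67 and -2.07. All 15 tested neutrophil markers, all 8 macrophage and monocyte markers, all 4 pan-leukocyte markers, all 6 erythroid markers and all 5 platelet markers were lower in TUMOR too, and Krt8 and Krt19 were higher. The call of the platelet gene Gp1bb was lost with the highest transcript per gene (-0.087) and with limma on log2(FPKM + 1) (-0.74). It was also lost without HOMING replicate 1 or TUMOR replicate 1. That of Itga2b was lost with the highest transcript (-0.71). The part of the cells that make these markers in the fall was not tested.

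**Figure D3:**
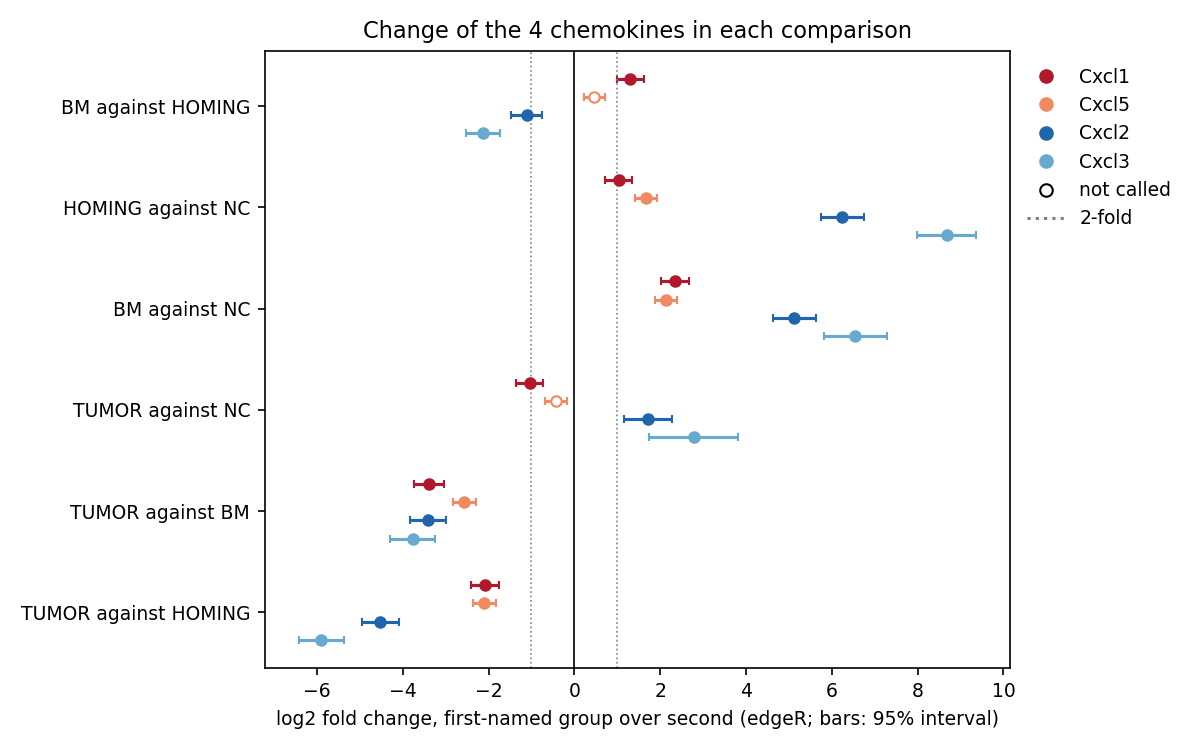
Log2 fold change of each gene in the 6 comparisons, with the group named first over the group named second and bars for the 95% interval from edgeR. Filled points were called and open points were not, and dotted lines mark a 2-fold change. Cxcl2 and Cxcl3 move most against NC, and in BM against HOMING they lie left of 0 while Cxcl1 lies right of it.

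The make-up of the 4-gene total differed between groups. Cxcl1 formed 42.8 ± 4.04% of the summed FPKM in TUMOR, 55.6 ± 1.18% in BM, 35.6 ± 1.22% in HOMING and 53.8 ± 4.45% in NC (SD, n = 3 each). Cxcl5 formed 54.0 ± 5.26% in TUMOR, 40.1 ± 1.36% in BM, 45.98 ± 1.86% in HOMING and 45.7 ± 4.48% in NC. Together these genes dominated every group, and they changed rank: Cxcl1 exceeded Cxcl5 in all 3 BM libraries, and Cxcl5 exceeded Cxcl1 in all 3 TUMOR and all 3 HOMING libraries. The ratio of Cxcl1 to Cxcl5 was 0.987, 0.731 and 0.689 in TUMOR, 1.31, 1.46 and 1.40 in BM, 0.763, 0.779 and 0.781 in HOMING and 1.00, 1.14 and 1.43 in NC.

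Cxcl2 and Cxcl3 took their largest shares in HOMING and their smallest in NC. Cxcl2 formed 2.49 ± 0.892% of the total in TUMOR, 3.25 ± 0.133% in BM, 11.01 ± 1.71% in HOMING and 0.458 ± 0.0501% in NC. Cxcl3 formed 0.655 ± 0.369% in TUMOR, 1.08 ± 0.0927% in BM, 7.42 ± 1.33% in HOMING and 0.0571 ± 0.00763% in NC. Among the 24 two-sided exact permutation tests of these shares the smallest p that 3 libraries against 3 allow is 0.1 (0.133 adjusted), so no share could pass 0.05. Shares that overlapped more gave larger values, such as an exact p of 0.6 for Cxcl1 in BM against NC and 0.8 for Cxcl5 in HOMING against NC.

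The ratio of Cxcl2 to Cxcl3 was 3.25, 4.29 and 4.68 in TUMOR, 3.09, 2.86 and 3.07 in BM, 1.497, 1.52 and 1.45 in HOMING and 6.12, 8.68 and 9.72 in NC. Cxcl3 thus stood closest to Cxcl2 in HOMING, in all 3 of its libraries. The NC ratios rest on the few reads of Cxcl3 given above.

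**Figure D4:**
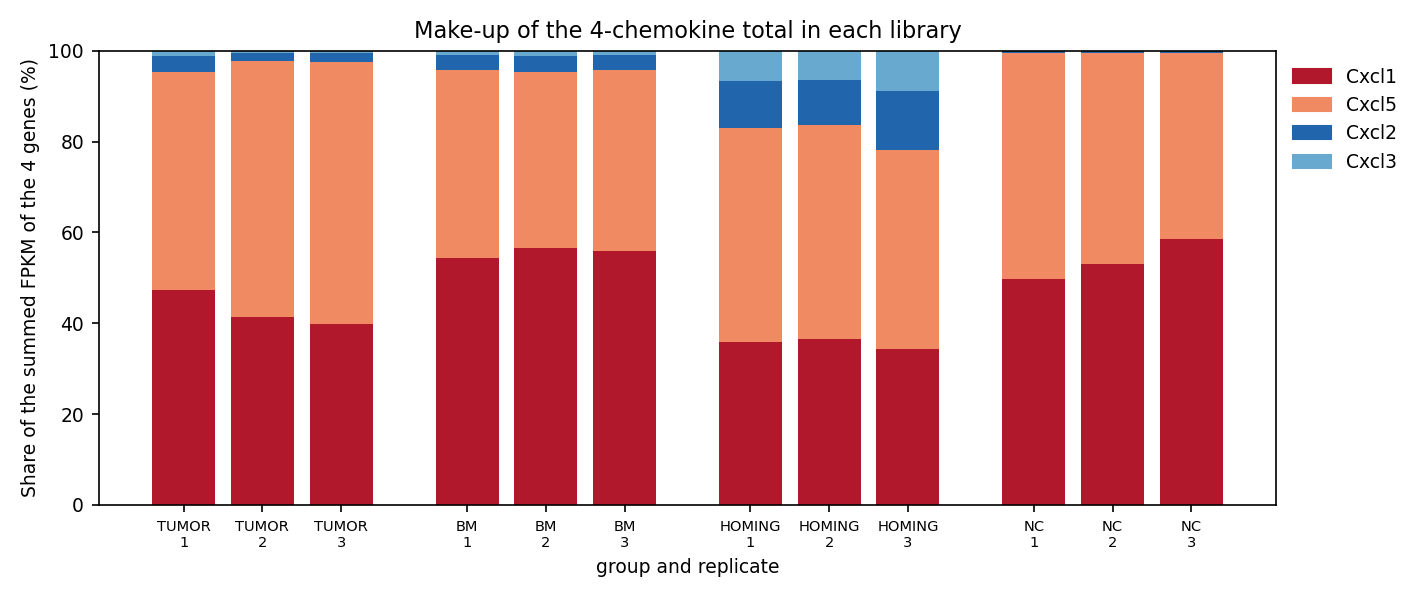
Stacked bars of the share, in percent, that each gene takes of the summed FPKM of the 4 genes in each of the 12 libraries, ordered TUMOR, BM, HOMING and NC. Cxcl1 and Cxcl5 fill most of every bar, and the part of Cxcl2 and Cxcl3 is largest in the HOMING libraries, at means of 11.01% and 7.42%.

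The other chemokines with the same glutamate-leucine-arginine motif were low. Ppbp, a platelet chemokine that lies between Cxcl5 and Cxcl3, averaged 1.36 ± 0.656 FPKM in TUMOR, 1.93 ± 0.365 FPKM in BM, 11.7 ± 2.01 FPKM in HOMING and 0.257 ± 0.156 FPKM in NC. It was lower in BM than in HOMING (log2 fold change -2.56 ± 0.31, adjusted p = 1.56e-05), like the platelet gene Pf4 next to it (-2.88 ± 0.25) and unlike Cxcl1. Itga2b and Gp9 were lower in BM too, so that 4 of 5 megakaryocyte and platelet markers fell, and the list summed to 6.02 to 7.38 FPKM in BM and 29.8 to 41.4 FPKM in HOMING. Gp9 passed the filter through the HOMING libraries alone, at 1.02 to 1.45 FPKM. The part of megakaryocytes and platelets in the Ppbp values was not tested. Cxcl15, which lies between Cxcl3 and Cxcl1, had at most 0.02 FPKM in any library. Neighbours in the cluster thus held different levels in the same libraries.

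The receptors of these ligands were scarce in the sorted cells. Cxcr2 averaged 0.213 FPKM in TUMOR, 0.233 FPKM in BM, 1.13 FPKM in HOMING and 0.157 FPKM in NC. It was called lower in BM than in HOMING (log2 fold change -2.24 ± 0.22, adjusted p = 2.72e-06) and higher in HOMING than in NC (2.71 ± 0.23, adjusted p = 3.75e-07). Cxcr2 passed the filter through the HOMING libraries alone, at 1.04 to 1.30 FPKM, with at most 0.31 FPKM in any other library. It was tested only because HOMING was high, so both calls are a description of its levels. At these levels the pseudocount matters: limma on log2(FPKM + 1) gave -0.79 and 0.88, both under the 2-fold minimum. Cxcr1 was listed with 18 reads over the HOMING libraries and at 0 in every other library. The scavenger receptor Ackr1, which takes up CXC chemokines on red cells and venules, reached at most 0.14 FPKM, in HOMING. Both stayed under the filter and were not tested.

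Of the 9 other CXC chemokines examined, 5 were tested. Cxcl12, the neutrophil-retaining chemokine of marrow stroma, was measured at 26.0, 35.9 and 34.8 FPKM in TUMOR, 22.4, 20.5 and 22.9 FPKM in BM, 30.5, 31.3 and 27.8 FPKM in HOMING and 31.5, 39.7 and 44.8 FPKM in NC, and did not reach the 2-fold minimum in any of the 6 comparisons. In BM against NC it was called lower (-1.02) where its most abundant transcript was taken in place of the gene sum. In BM against HOMING 3 of the 5 fell (Pf4, Cxcl9 and Cxcl10), with a median log2 fold change of -1.40 against -0.00467 over all genes tested. Cxcl9 passed the filter through the HOMING libraries alone, at 2.61 to 2.83 FPKM. In TUMOR against BM, Pf4 and Cxcl16 fell. In TUMOR against NC the edgeR test called 0 of the 5, as did DESeq2 and limma, and 3 were lower at an unadjusted p under 0.05.

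Cytokines that induce these chemokines were compared next. Il1a, Il1b, Tnf and Osm fell in BM against HOMING, while Il6 did not, and all 5 rose in BM against NC. Osm averaged only 0.543 FPKM in BM and had 0 reads in NC. It passed the filter through the HOMING libraries alone, at 3.14 to 5.21 FPKM, so its fall in BM against HOMING is a description of its levels. For Osm in BM against NC, limma on log2(FPKM + 1) gave 0.625, under the 2-fold minimum. Il1b, which encodes interleukin-1 beta, was measured at 0.05, 0.00 and 0.04 FPKM in TUMOR, 11.6, 11.99 and 12.1 FPKM in BM, 73.6, 72.9 and 116 FPKM in HOMING and 0.10, 0.09 and 0.05 FPKM in NC. Tnf averaged 0.0433 FPKM in TUMOR, 3.29 FPKM in BM, 45.1 FPKM in HOMING and 0.0333 FPKM in NC. Neither Il1b nor Tnf exceeded 0.10 FPKM in any TUMOR or NC library, and both were higher in HOMING than in BM, as Cxcl2 and Cxcl3 were.

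In BM against HOMING the log2 fold changes were -1.45 ± 0.16 for Il1a, -2.85 ± 0.16 for Il1b, -3.75 ± 0.17 for Tnf and -2.81 ± 0.22 for Osm (adjusted p = 7.96e-06, 2.13e-08, 3.46e-09 and 1.48e-06 in that order). Over the 5 tested genes, Osm among them, the median was -2.81. Il6, which stromal cells themselves make, was measured at 1.65, 1.87 and 1.91 FPKM in TUMOR, 32.4, 30.1 and 34.9 FPKM in BM, 17.0, 17.2 and 23.6 FPKM in HOMING and 12.8, 10.8 and 16.3 FPKM in NC. Its log2 fold change in BM against HOMING was 0.78 ± 0.15 (adjusted p = 0.000625) and under the 2-fold minimum. Like Cxcl1 and Cxcl5, Il6 was highest in BM.

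In TUMOR against BM all 5 cytokines fell, with log2 fold changes from -2.53 ± 0.32 for Osm to -8.57 ± 0.39 for Il1b and a median of -6.22. The Osm call was not made by limma on log2(FPKM + 1), which gave -0.49. In TUMOR against NC, Il6 fell to 1.81 FPKM in TUMOR against 13.3 FPKM in NC (log2 interval -3.41 to -2.59, adjusted p = 2.08e-08). Il1a fell to 0.11 FPKM in TUMOR against a mean of 0.39 FPKM in NC (log2 fold change -1.97 ± 0.49, adjusted p = 0.00264), a call not made by limma on log2(FPKM + 1), with -0.32 and an adjusted p of 0.0542. Osm had 0 reads in every NC library and 7 to 9 reads in each TUMOR library, so no fold change is given. Il17a and Il17f were under the filter.

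**Figure D5:**
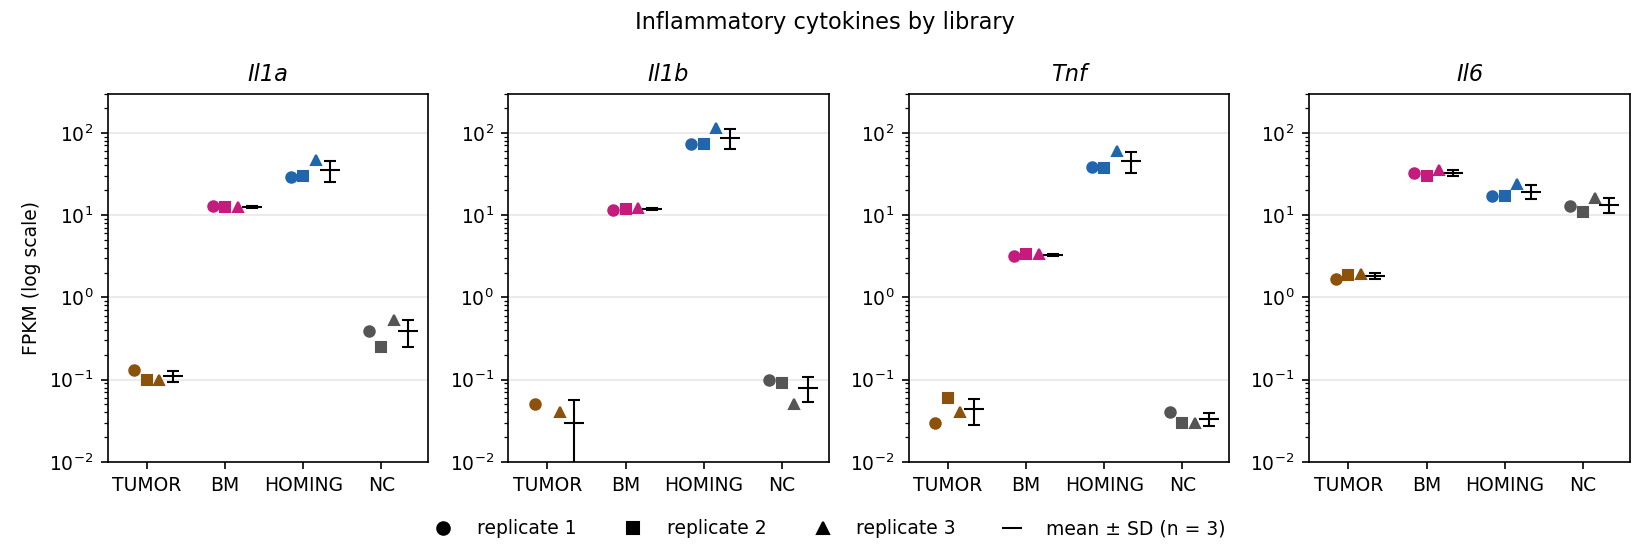
FPKM on a log scale of the cytokine genes Il1a, Il1b, Tnf and Il6 in each library of TUMOR, BM, HOMING and NC, with the mean ± SD of 3 libraries beside the points. Il1b in TUMOR replicate 2 is listed at 0 and has no point. Il1a, Il1b and Tnf are highest in HOMING, and Il6 is highest in BM at a mean of 32.4 FPKM.

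Receptors and adaptors that carry these signals gave fewer calls. Of 12 genes, all tested, Il1r1, the signalling receptor for interleukin-1, and its partner Il1rap rose in BM against HOMING, and the list median was 0.16. Il1r1 had a log2 fold change of 1.28 ± 0.17 (adjusted p = 3.47e-05) and Il1rap of 1.02 ± 0.12 (adjusted p = 9.20e-06). Without HOMING replicate 1 or 2 the value of Il1rap was 0.96 or 0.97, and limma on log2(FPKM + 1) gave 0.98 for Il1r1 and 0.83 for Il1rap, all under the 2-fold minimum. In BM against HOMING both receptor genes were thus higher while Il1a and Il1b were lower. BM against NC differed, since Il1r1, Il1rap, Il1a and Il1b were all called higher in BM there. Il1r1 averaged 5.47 FPKM in BM and 2.34 FPKM in NC, and Il1rap 8.03 and 2.16 FPKM. For Il1r1 limma on log2(FPKM + 1) gave 0.96 in BM against NC, under the 2-fold minimum. In TUMOR against NC, Il1r1 alone was called, at 1.87 ± 0.17 (adjusted p = 5.28e-07), and in TUMOR against BM, Il1rap and Tlr2, a receptor for bacterial lipoproteins, were lower.

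Genes of NF-kB factors and their feedback were 11 in number, and all were tested. In BM against HOMING the edgeR test called 0 of them, as did DESeq2 and limma, and 8 were higher at an unadjusted p under 0.05, with a list median of 0.50. In HOMING against NC the inhibitor genes Nfkbia (log2 fold change 1.38 ± 0.11) and Tnfaip3 (1.26 ± 0.10) rose, and in BM against NC Nfkbia (1.58 ± 0.11), Tnfaip3 (1.62 ± 0.10) and Bcl3 (1.10 ± 0.11) rose. In TUMOR against BM, 8 of 11 fell, with a median of -1.40. The 4 with the smallest adjusted p were Nfkb2 (-1.40 ± 0.07), Bcl3 (-1.999 ± 0.11), Relb (-1.89 ± 0.10) and Tnfaip3 (-1.51 ± 0.10). In TUMOR against NC, Nfkbia rose (1.02 ± 0.11) while Nfkb2 (-1.09 ± 0.07) and Relb (-1.29 ± 0.10) fell. The call of Nfkbia there was lost without NC replicate 2 (0.98) or TUMOR replicate 1 (0.88), and that of Nfkb2 with scaling by library size (-0.97).

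Of 6 genes for regulators of mRNA decay, the edgeR test called Zfp36 alone in any comparison. It averaged 16.2 FPKM in TUMOR, 23.5 FPKM in BM, 50.2 FPKM in HOMING and 15.4 FPKM in NC. It was lower in BM than in HOMING (log2 fold change -1.06 ± 0.12, adjusted p = 1.24e-05), higher in HOMING than in NC (1.59 ± 0.13, adjusted p = 2.02e-07) and lower in TUMOR than in HOMING (-1.64 ± 0.13, adjusted p = 3.24e-07). Without HOMING replicate 3 the fall in BM against HOMING was -0.89 and under the 2-fold minimum. Its level in BM against NC gave 0.52 ± 0.13 (adjusted p = 0.00291) and was not called.

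Growth factors that drive the production and survival of neutrophils and other myeloid cells were split in BM against HOMING. Csf3, the granulocyte colony-stimulating factor gene, was measured at 0.04, 0.07 and 0.02 FPKM in TUMOR, 5.84, 5.72 and 6.76 FPKM in BM, 51.9, 47.1 and 76.1 FPKM in HOMING and 0.10, 0.03 and 0.17 FPKM in NC. It fell in BM against HOMING (log2 fold change -3.23 ± 0.18, adjusted p = 1.66e-08) and rose in BM against NC (5.80 ± 0.34, adjusted p = 4.10e-08), the directions of Cxcl2 and Cxcl3. Lif, a cytokine of the interleukin-6 family, averaged 5.23 FPKM in TUMOR, 32.3 FPKM in BM, 10.6 FPKM in HOMING and 11.5 FPKM in NC, with a rise in BM against HOMING (1.62 ± 0.24, adjusted p = 8.73e-05), the direction of Cxcl1. Csf2, the granulocyte-macrophage factor gene, was called higher in BM at the edge of the threshold (1.02 ± 0.41, adjusted p = 0.0494). Leaving out any of the 6 libraries ended the Csf2 call, as did DESeq2 (adjusted p = 0.0795).

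In TUMOR against BM, Csf3, Csf2, Csf1 and Lif, 4 of the 5 genes in this list, were lower. Csf1, the macrophage colony-stimulating factor gene, averaged 87.1 FPKM in TUMOR, 184 FPKM in BM, 118 FPKM in HOMING and 272 FPKM in NC, so its highest level was in culture. It was lower in TUMOR than in NC (log2 fold change -1.75 ± 0.08, adjusted p = 1.86e-09), along with Csf2 and Lif. Without NC replicate 3, in which both were highest, Csf2 gave -0.40 and Lif -0.79, and neither was called.

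Genes whose profile over the 12 libraries was nearest to each member were found by the root mean square difference of log2(FPKM + 1) after centring each gene on its own mean. There were 8289 candidates with a mean of at least 5 FPKM. Nearest to Cxcl1 were Plpp3, a lipid phosphatase gene, at 0.19, Dcn, which encodes the matrix proteoglycan decorin, at 0.29, Gdf15 at 0.30 and Enpp2, the autotaxin gene, at 0.33. Nearest to Cxcl5 were Fas, a death receptor gene, at 0.14, Birc3, an inhibitor of apoptosis, at 0.19, Sod2, the mitochondrial superoxide dismutase gene, at 0.20 and Ccbe1 at 0.25. Dcn, for example, averaged 65.7 FPKM in TUMOR, 605 FPKM in BM, 207 FPKM in HOMING and 96.1 FPKM in NC.

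Nearest to Cxcl2 were Il1f9, an interleukin-36 gene, at 0.57, Il1a at 0.66, Slfn2 at 0.67 and Lilr4b at 0.71. Nearest to Cxcl3 were Il1b at 0.52, Acod1, the itaconate-producing enzyme gene of activated macrophages, at 0.59, Csf3 at 0.63 and the chemokine gene Ccl4 at 0.66. Cxcl2 and Cxcl3 differed from each other by 0.41, and 0 candidates were closer to either of them. Cxcl1 and Cxcl5 differed by 0.40, with 6 candidates closer to Cxcl1 and 11 closer to Cxcl5. Between Cxcl1 and Cxcl2, neighbours in the cluster, the difference was 1.62. Among the 4 genes alone, Cxcl1 and Cxcl5 were thus nearest to each other, as were Cxcl2 and Cxcl3, and those pairs do not follow gene order. The closeness of Cxcl2 and Cxcl3 carries the caution given above for their 110-base stretch.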

How the data were processed

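Per the labels, cells were sorted and flash frozen, and Trizol RNA went into Illumina TruSeq libraries. Bowtie 0.12.2 and build mm8 are named in the submitters' processing notes, and no source used here names the counting program. The authors deposited a table of transcripts above 0 for each library, with expected counts, which are estimated reads without normalization. The same deposited tables give FPKM, scaled by the authors to transcript length and library depth. Both were summed per gene, with unlisted transcripts at 0. Of 19679 Entrez numbers, 19629 matched a symbol, and the 1322 genes without one took 2.08 to 2.65% of counts. Library totals were 43232145 to 46166519.

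A gene was tested if 3 or more libraries had 1 FPKM or more, which held for 12314 genes. Their rounded counts were scaled by TMM (factors 0.929 to 1.04) and fitted over all 12 libraries in edgeR 4.0.16 (R 4.3.3). Each of 6 comparisons had a two-sided quasi-likelihood F-test, with p adjusted by Benjamini and Hochberg over all genes tested. Calls needed an adjusted p below 0.05 together with a change of 2-fold or more. A gene could pass the filter through 1 group alone, and its calls against that group then describe levels only. Standard errors are the absolute log2 fold change over the square root of F.

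Members and gene lists were chosen with earlier results of these data known. The text names the 4 members, up to 4 genes of a list per comparison by adjusted p (otherwise the 2 most abundant), any gene of the receptor, related ligand, inducing cytokine and growth factor lists, and the 4 nearest profiles per member. Cxcl12, Pf4, Lcn2, Krt18, Cdh1, Epcam, Itga2b, Gp9, Gp1bb, the marker genes at 0, Thy1, Nt5e, Lepr and Ptprc, Coro1a, Laptm5 and Spi1 are named beyond this rule, chosen after their values were seen, to describe levels. Alternatives were median ratio and library size scaling, DESeq2 1.42.0, no filter, restriction to genes averaging 1 FPKM or more in NC, limma 3.58.1 on log2(FPKM + 1) and log2(FPKM + 0.1), the highest transcript per gene, the compared groups alone, a replicate block and leaving out each library. Promoters are from RefSeq, GRCm38.p6, a build later than that of the files. Python 3.11.15, pandas 2.3.3, scipy 1.17.1 and matplotlib 3.10.9 were used.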

Additional observations from a re-analysis of the deposited data

How the results depend on the processing

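Over 378 alternative values of the 24 member changes, 0 reversed and 370 kept their side of the threshold. Among the 234 that left out no library, 4 fell under the 2-fold minimum, all for Cxcl1 in TUMOR against NC: the log2 fold change was -0.91 with library size scaling, -0.999 with only genes expressed in NC, -0.87 with limma on log2(FPKM + 1) and -0.88 with limma on log2(FPKM + 0.1). Leaving out single libraries, the log2 fold change ran from 0.91 to 1.31 for Cxcl1 in HOMING against NC, from -1.17 to -0.77 for Cxcl1 in TUMOR against NC and from -1.21 to -0.91 for Cxcl2 in BM against HOMING. Library size scaling moved the median of all genes by 0.113 in HOMING against NC and 0.124 in TUMOR against NC (log2). Cxcl3 was under the filter of genes expressed in NC and has no value there. Genes called per comparison were 1280 to 2019, and 2537 to 3420 with no filter, 542 to 1449 with genes expressed in NC and 626 to 1301 with limma on log2(FPKM + 1). Over genes expressed in NC the share of rises among the calls was 55.0% in BM against HOMING, where it was 35.7% over all genes tested, and it moved by up to 19.8 points over the comparisons. All 64 alternative values of the shares moved by less than 1 SD.

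With the replicate number as a block, no member call changed (1.30 for Cxcl1 in BM against HOMING, -1.01 for Cxcl1 in TUMOR against NC), and 1285 to 2018 genes were called per comparison. Deviations of libraries with the same number correlated at -0.12 to 0.22, with 1 of 18 pairs over 0.1, and 14 of 36 checks found the highest correlation with the library's own number, so the numbers were not taken to pair samples. The NC values of Cxcl3 rest on 8 to 11 reads a library.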
